A study of Mus musculus with 9 samples.

Results

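The Rhox (reproductive homeobox) genes form a cluster on the X chromosome and encode homeodomain transcription factors. In the mouse they are known for expression in testis, epididymis, ovary and placenta, in germ cells and in the somatic cells around them. Most members are kept silent in the cells of the embryo proper, and DNA methylation, linker histone H1 and histone lysine methyltransferases are known to hold several of them silent in embryonic stem cells. RING1B, the main E3 ubiquitin ligase of Polycomb repressive complex 1 (PRC1) for histone H2A in these cells, is also a subunit of the variant PRC1 that represses germline genes.

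The 8 genes described are Rhox1, Rhox2a, Rhox4b, Rhox5, Rhox6, Rhox9, Rhox10 and Rhox11, of 42 Rhox genes and pseudogenes that RefSeq places on chromosome X of GRCm38. They were put forward as a set with results of these same arrays known, so their levels and fold changes are given as a description and carry no test. A gene was found through the RefSeq accession, symbol or Ensembl gene of its probes. Of the 8 genes, 5 had a probe in the deposited series table (30170 probes, 21713 genes), 1 (Rhox5) had a probe in the scan files only, and 2 (Rhox2a and Rhox4b) matched no probe by these names. Another 14 Rhox genes had a probe, 5 of them in the series table, and are compared below.

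Expression was measured with 1-colour Agilent arrays in 9 samples of mouse embryonic stem cells (mESCs), 3 each of wild-type, Ring1B-/- and Ring1B I53A/I53A cells. The wild-type (WT) cells were E14Tg2a, a male line of strain 129P2/OlaHsd. The Ring1B-/- cells (KO) were derived from the same line and lack RING1B because an exon of its gene, Rnf2, was removed from both alleles. In the Ring1B I53A/I53A cells (I53A) both endogenous alleles encode RING1B with an alanine in place of an isoleucine, a protein that enters PRC1 but does not ubiquitinate H2A. All 3 were grown in serum with LIF. The 3 KO columns of the deposited table share 1 name, as do those of WT and of I53A, and the sources used here do not give the number of clones behind each mutant group, so a difference between groups cannot be told apart from a difference between cell lines. They call the samples biological replicates and do not describe separate cultures, so that p-values here cover only the scatter among these 9 samples, part or all of which may be technical.

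Between 45.4% and 57.3% of the table's probes were well above background on an array, and arrays of 1 group correlated at 0.958 to 0.972. Only 3 arrays per group limited the precision. Slide 1 held 2 arrays of every group and slide 2 held 1 (WT 3, KO 1 and I53A 3), while slide column and group went together and cannot be told apart. Rnf2 did not check the labels, because the place of its probe relative to the removed exon was not established. Its log2 signal was 8.32, 8.27 and 8.47 in WT, 7.35, 7.92 and 8.08 in KO, and 8.69, 9.10 and 8.59 in I53A. Of 7 embryonic stem cell markers measured, all were well above background on some array, and only Sox2 was called, lower in KO (log2 fold change -1.03, limma adjusted p = 0.0425).

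The probes that carry the results are 60 bases long and were designed by the array's maker. Those of the table are printed for 3 listed genes that were higher in KO (Rhox6, Rhox9, Rhox10), for their neighbour Rhox13, and for Rhox11, which stayed at background. They are given 5′ to 3′ with no capitals, because no part of them is singled out.
Rhox6: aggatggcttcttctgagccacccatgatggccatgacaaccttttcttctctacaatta
Rhox9: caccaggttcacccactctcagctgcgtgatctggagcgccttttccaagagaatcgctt
Rhox10: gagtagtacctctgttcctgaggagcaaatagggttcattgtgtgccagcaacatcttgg
Rhox13: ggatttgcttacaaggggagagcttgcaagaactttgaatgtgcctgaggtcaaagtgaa
Rhox11: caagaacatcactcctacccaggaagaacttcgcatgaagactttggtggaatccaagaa
The longest run of bases that any of the 10 Rhox probes of the table shared with another of them, on either strand, was 9 bases. Probes of the table are those the authors kept as mapping to 1 Ensembl gene and as not mostly repetitive in sequence. The probes of Rhox5, Rhox2c and Rhox2e are not among these, and Rhox2 genes are near-identical copies, so the signal of a Rhox2 probe may come from more than 1 copy.

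The same genes start from promoters with few to moderate numbers of CpG dinucleotides, the sites of DNA methylation, which was not measured on these arrays. RefSeq promoter windows of 300 bases were available for 6 of the 8 genes (not Rhox6 and Rhox9) and for 28 Rhox genes in all. Only the first window listed for each Rhox gene was used, and a gene may have others. A window held a median of 7 CpGs over the Rhox genes and 7 over all 32851 windows. It held 9 in Rhox10, 5 in Rhox5, 7 in Rhox11 and 0 in Rhox1, and 5 in Rhox13. The 250 bases before the start are printed for 3 genes that were higher in KO and for Rhox11, with every CpG in capitals. They lie in GRCm38 at chrX:37754358-37754607 on the plus strand (Rhox5), chrX:38066225-38066474 on the plus strand (Rhox10), chrX:38120590-38120839 on the plus strand (Rhox13) and chrX:38085140-38085389 on the minus strand (Rhox11).
Rhox5: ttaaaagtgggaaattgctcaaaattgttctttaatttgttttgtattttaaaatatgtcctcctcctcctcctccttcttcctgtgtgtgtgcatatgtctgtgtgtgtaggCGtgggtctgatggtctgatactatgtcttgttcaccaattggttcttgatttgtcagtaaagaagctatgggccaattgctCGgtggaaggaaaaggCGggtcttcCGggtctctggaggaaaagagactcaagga
Rhox10: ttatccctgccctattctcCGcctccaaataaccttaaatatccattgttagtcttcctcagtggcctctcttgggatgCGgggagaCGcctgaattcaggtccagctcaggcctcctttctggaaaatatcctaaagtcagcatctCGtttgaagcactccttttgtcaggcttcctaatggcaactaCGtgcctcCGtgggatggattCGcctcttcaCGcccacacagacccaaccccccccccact
Rhox13: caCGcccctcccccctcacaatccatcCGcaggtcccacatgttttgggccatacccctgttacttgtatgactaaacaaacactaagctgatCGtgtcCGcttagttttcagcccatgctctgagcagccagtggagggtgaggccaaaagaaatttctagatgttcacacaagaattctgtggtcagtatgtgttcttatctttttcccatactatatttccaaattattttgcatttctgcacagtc
Rhox11: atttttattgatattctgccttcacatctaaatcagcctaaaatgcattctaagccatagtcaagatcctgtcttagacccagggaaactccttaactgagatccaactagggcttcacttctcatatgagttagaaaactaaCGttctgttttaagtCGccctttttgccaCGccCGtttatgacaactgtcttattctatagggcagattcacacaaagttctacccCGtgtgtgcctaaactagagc
The motif CACGTG, an E-box, was searched on both strands (it is its own reverse complement) and occurred in 5 Rhox windows, those of Rhox4a2, Rhox4b, Rhox4e, Rhox4f and Rhox4g. It occurred in 7.15% of all windows. GCGGGA, the core of E2F sites, was in 1 Rhox window on either strand, that of the pseudogene Rhox11-ps2, and in 19.98% of all windows. None of the 4 printed windows held either motif, which says only that these letters are not in them.

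The first comparison asked how the Rhox genes differ between cells without RING1B and WT. In KO cells 4 listed genes were higher, with Rhox10 highest by fold change, followed by Rhox5, Rhox6 and Rhox9. Rhox1 and Rhox11 stayed at or near background in every group. Values are log2 of the quantile-normalised intensity of the brightest probe, with n = 3 arrays per group for every Rhox gene.

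Rhox5, the founding member of the cluster (also called Pem), is expressed in Sertoli cells, epididymis and extraembryonic tissues. Its gene spans 37754608 to 37808878 on chromosome X. The Rhox5 probe lies outside the table, so whether it reads Rhox5 alone was not established. Its log2 signal was 9.70, 9.90 and 9.50 in WT, 12.63, 13.18 and 13.04 in KO, and 10.63, 10.94 and 10.15 in I53A. The 3 groups did not overlap, with KO highest, I53A between and WT lowest. WT cells were already well above background on all 3 arrays (9.70 ± 0.20, SD). KO exceeded WT by a log2 fold change of 3.25 (SE 0.27), a 9.50-fold difference.

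Rhox6 and Rhox9 (Psx1 and Psx2) are homeobox genes of placenta and germ cells, at 37827055 to 37829857 and 37899097 to 37901770. For Rhox6 the log2 signal was 5.83, 6.04 and 5.89 in WT, 8.22, 9.16 and 8.56 in KO, and 6.94, 6.03 and 7.19 in I53A. All 3 KO arrays lay above every other array, while 1 I53A array lay within the WT range. The KO difference from WT was a log2 fold change of 2.73 (SE 0.34), or 6.63-fold, and 1.90 with normexp background correction. For Rhox9 the log2 signal was 7.21, 7.79 and 6.15 in WT, 8.78, 9.19 and 9.31 in KO, and 7.27, 8.28 and 7.41 in I53A. KO again lay above every other array, but WT was spread over a range wide enough (7.05 ± 0.83) to hold 2 of the 3 I53A arrays. The KO difference from WT was a log2 fold change of 2.04 (SE 0.42), or 4.11-fold. This was the least secure of the 4: the call was lost with WT 1, WT 3, KO 2 or KO 3 left out (log2 fold change 1.59 to 2.12), on slide 1 alone (1.75) and with normexp background correction (1.54).

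Rhox10 is expressed in the early male germline, where it is known to act in the establishment of spermatogonial stem cells. It lies at 38066475 to 38071688, and its log2 signal was 4.86, 4.61 and 4.03 in WT, 8.32, 8.43 and 8.14 in KO, and 5.97, 5.84 and 6.07 in I53A. No WT array was well above background, while all 3 KO and all 3 I53A arrays were, and the 3 groups did not overlap. Where a group was dim on every array, "at least" gives the fold against its signals, with those under a background limit raised to it. This limit is the lowest signal on that array among probes well above background. Dim signals already above it were left unchanged, and the fold applies to this normalisation only. Where no signal was raised (Ddx4 and Plac1 below), the fitted fold is given, which is no bound. Rhox10 was at least 13-fold higher in KO (8.30 ± 0.14) than in WT (4.50 ± 0.43), with a fitted log2 fold change of 3.80 (SE 0.25). With normexp background correction the fitted value fell to 1.79, below the log2 of that bound (3.71). The call was kept under all 19 alternatives.

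Rhox11 and Rhox1 are expressed in the testis. Rhox11 lies on the opposite strand to Rhox10, and 4909 bases separate the 3′ ends of these neighbours in RefSeq's coordinates. Its log2 signal was 4.17, 4.85 and 4.23 in WT, 4.74, 4.40 and 4.90 in KO, and 4.74, 5.64 and 4.35 in I53A. No array was well above background, the groups overlapped, and no fold is given. Rhox1, at the opposite end of the cluster (37213804 to 37222258), had a log2 signal of 4.02, 4.03 and 5.51 in WT, 5.63, 4.64 and 5.24 in KO, and 4.52, 2.99 and 3.92 in I53A. It was well above background on KO 1 alone, and the KO and WT ranges overlapped. Silence of either gene cannot be read from signals this dim.

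**Figure D1:**
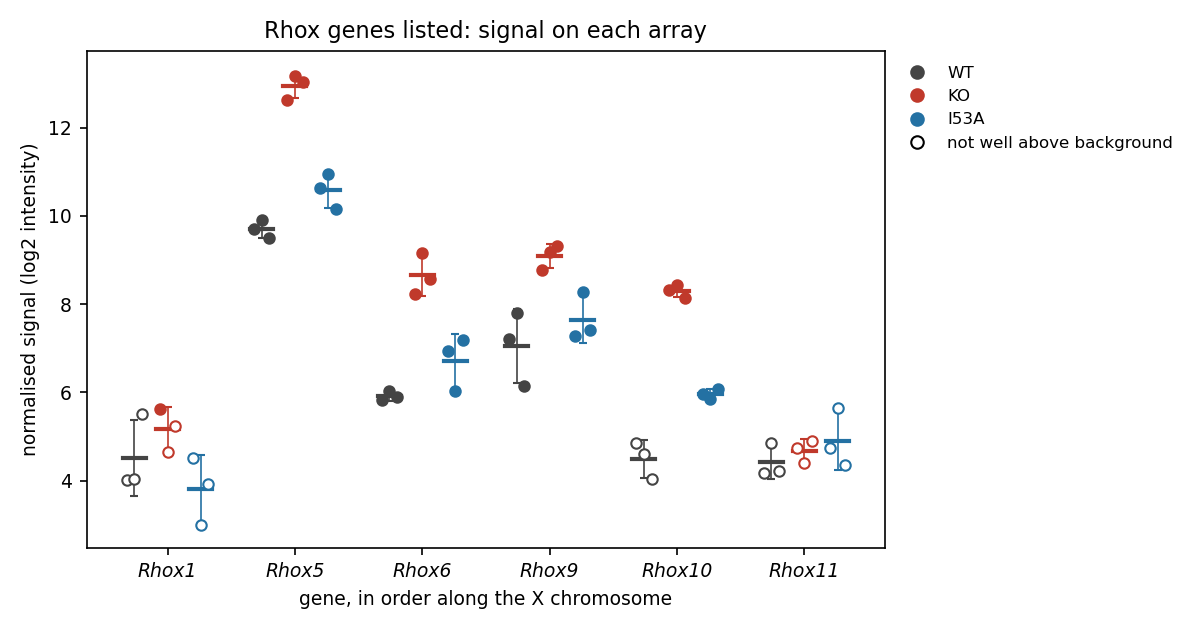
Normalised log2 signal of the 6 listed Rhox genes with a probe on each of the 9 arrays (points), with the mean (bar) and SD (whiskers) of 3 arrays per group. Rhox5, Rhox6, Rhox9 and Rhox10 have every KO array above every WT array, while Rhox1 and Rhox11 lie at or near background, shown by open points.

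By the call rule (Benjamini-Hochberg adjusted p under 0.05 in limma and more than 2-fold), 4 of the 6 genes with a probe were called higher in KO and 0 lower. Of the table's probes 2.73% were called higher and 1.11% lower, and of all 55681 probes, the background for Rhox5, 1.78% were called higher. Nothing is read from this, since the genes were chosen with these differences known. Likewise, in 4 of 6 genes every KO array lay above every WT array, as it did for 11.6% of the table's probes. The median log2 fold change of the 6 genes was 2.38, beside -0.02 over the table's probes. On slide 1 the KO difference was 3.31 in Rhox5, 2.93 in Rhox6 and 3.55 in Rhox10. On slide 2, with 1 array of each group, the log2 differences were 3.13, 2.33, 2.62 and 4.29 in Rhox5, Rhox6, Rhox9 and Rhox10.

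The second comparison asked whether RING1B that cannot ubiquitinate H2A left the Rhox genes at their WT level. It shares its WT arrays with the first. In I53A cells the log2 fold change from WT was 0.88 in Rhox5, 0.80 in Rhox6, 0.60 in Rhox9 (SE 0.27, 0.34 and 0.42) and 1.46 in Rhox10 (SE 0.25). Rhox10 was called, at least 2.58-fold higher, and was the only 1 of 6 to be so, where 0.235% of the table's probes were called higher and 0.0928% lower, and 0.154% of all probes were called higher. Its call was marginal and ended when any 1 of the 9 arrays was left out (log2 fold change 1.22 to 1.64) and under 7 other alternatives. With normexp background correction the fitted value fell to 0.41, below the log2 of that bound (1.37). In 2 genes, Rhox5 and Rhox10, every I53A array lay above every WT array, as in 8.09% of the table's probes. In Rhox6 and Rhox9 the I53A and WT arrays overlapped. Rhox1 and Rhox11 were not well above background on any I53A or WT array.

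Set against each other, KO cells had the higher level of Rhox5, Rhox6, Rhox9 and Rhox10, with KO minus I53A log2 differences of 2.37 (SE 0.27), 1.93 (SE 0.34), 1.44 (SE 0.42) and 2.34 (SE 0.25). Rhox5, Rhox6 and Rhox10 were called and Rhox9 was not, where 0.958% of the table's probes and 0.726% of all probes were called higher. In these 4 genes and in Rhox1 every KO array lay above every I53A array, as in 7.61% of the table's probes. The Rhox6 call ended without KO 2, KO 3, I53A 1 or I53A 2 (1.58 to 2.03), on slide 1 alone (2.37), with only the groups compared in the fit, with the replicate block and with normexp (1.34). The Rhox5 call ended with normexp, and the Rhox10 difference fell to 1.38 but stayed called. For Rhox5 and Rhox10, then, the order of levels was KO, I53A, WT with no overlap between neighbours, and for Rhox6 and Rhox9 I53A and WT were not separated by their spread.

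The other 14 Rhox genes with a probe were not chosen for these differences by name, and their p-values are given, although they belong to the same cluster and were known when the lists were written. In KO 3 of them rose, 0 fell and 11 were not called by limma. Beside this, 2.73% of the table's probes and 1.78% of all probes were called higher in KO. The same shares were 0.235% and 0.154% in I53A against WT, and 0.958% and 0.726% in KO against I53A. Of the genes that rose, Rhox2c and Rhox2e were read by probes outside the table. These probes may read the same copies, or the listed Rhox2a, so the 2 may not count as separate genes. Rhox13, the last protein-coding gene of the cluster at 38120840 to 38129966, is a germ cell homeobox gene. Its log2 signal was 7.14, 7.01 and 6.79 in WT, 10.00, 10.06 and 10.17 in KO, and 8.53, 8.55 and 8.12 in I53A. As in Rhox10, the groups did not overlap and I53A lay between. Rhox13 rose in KO by a log2 fold change of 3.10 (SE 0.22, limma adjusted p = 6.4e-05) and in I53A by 1.42 (limma adjusted p = 0.03), and KO exceeded I53A by 1.67 (limma adjusted p = 0.00549). The I53A call ended without any WT array, any I53A array or KO 2 (limma adjusted p from 0.0581 to 0.146), and under 5 other alternatives. The KO minus I53A call ended with normexp background correction (1.35, limma adjusted p = 0.384) and on slide 1 alone (limma adjusted p = 0.0851). With normexp the KO difference from WT was 2.31 (limma adjusted p = 0.0477).

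Rhox2c and Rhox2e are copies of the Rhox2 gene, of which RefSeq lists 8. The Rhox2c log2 signal was 5.48, 5.25 and 5.42 in WT, 7.89, 7.88 and 7.86 in KO, and 5.59, 5.44 and 5.89 in I53A. It rose 5.63-fold in KO (log2 fold change 2.49, SE 0.22, limma adjusted p = 0.000161), while the I53A and WT arrays overlapped (0.26, limma adjusted p = 0.839). For Rhox2e the log2 signal was 5.65, 5.75 and 5.26 in WT, 7.47, 7.34 and 7.64 in KO, and 5.79, 5.34 and 6.02 in I53A. It rose 3.80-fold in KO (1.93, SE 0.26, limma adjusted p = 0.00281), a call that ended on slide 1 alone (limma adjusted p = 0.0727). KO also exceeded I53A in Rhox2c (2.24, limma adjusted p = 0.00103) and Rhox2e (1.77, limma adjusted p = 0.00965). With normexp the KO difference from WT was 1.54 in Rhox2c and 1.16 in Rhox2e, and both calls were kept. In WT both were well above background on 1 of 3 arrays.

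Rhox2h gave different calls by probe. Its table probe had a log2 signal of 6.79, 6.14 and 6.22 in WT, 7.75, 7.71 and 7.39 in KO, and 7.41, 6.68 and 5.91 in I53A, and the KO difference of 1.23 did not pass the test (limma adjusted p = 0.0942). It passed without I53A 3 (limma adjusted p = 0.0486), with dim probes left out (0.0378) and with only KO and WT in the fit (0.0494). A second Rhox2h probe outside the table rose in KO by 2.56 (limma adjusted p = 0.00807). The KO arrays lay above the WT arrays with both probes.

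The remaining 10 Rhox genes with a probe are copies of Rhox3 (Rhox3a, Rhox3e, Rhox3f, Rhox3h) and Rhox4 (Rhox4a, Rhox4e, Rhox4g), and Rhox7a, Rhox8 and Rhox12. With Rhox2h, the log2 fold changes of the uncalled genes ran from -0.56 to 1.23 in KO and from -0.44 to 0.50 in I53A. Rhox4e, Rhox3h and the table probe of Rhox7a were not well above background on any array. A second Rhox7a probe, outside the table, was well above background on all 9 arrays, with log2 signals of 5.86 to 6.66, and was not called. Rhox8, which is expressed in the somatic cells of the gonads, had a log2 signal of 15.08, 14.78 and 15.10 in WT, 14.65, 15.24 and 14.42 in KO, and 15.50, 14.79 and 14.87 in I53A by its brighter probe. A second Rhox8 probe gave 5.20 to 6.32. The probes disagreed and neither is in the table, so the level of Rhox8 is not settled. No difference was called with either probe, the groups overlapped, and no Rhox spot was saturated. Rhox4a was well above background on all 9 arrays, with 8.06, 7.36 and 8.04 in WT, 7.24, 7.28 and 7.25 in KO, and 7.78, 7.60 and 7.20 in I53A. The KO arrays all lay below the WT arrays, as in 12.6% of the table's probes, by a log2 difference of 0.56 that did not pass the test (limma adjusted p = 0.387). The Rhox genes called in KO therefore included copies of Rhox2, Rhox5, Rhox6, Rhox9, Rhox10 and Rhox13, with uncalled genes lying between them on the chromosome.

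**Figure D2:**
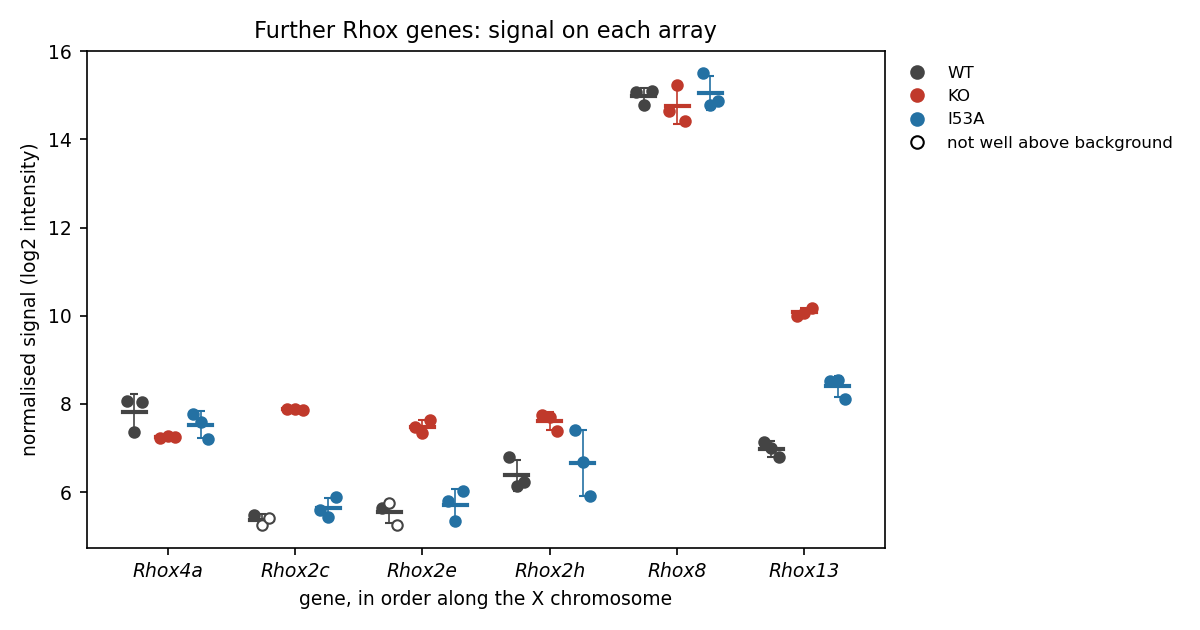
Normalised log2 signal of 6 further Rhox genes on each of the 9 arrays (points), with the mean (bar) and SD (whiskers) of 3 arrays per group. Rhox13, Rhox2c and Rhox2e have every KO array above every WT and I53A array, while the groups overlap in Rhox8.

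The neighbourhood was read next, to place the Rhox values beside those of other X-linked genes within 1 Mb of the outermost Rhox starts of the table. Of 27 such genes, 2 rose in KO, 0 fell and 25 were not called by limma. In I53A 0 of the 27 were called (limma). Of the table's probes 2.73% were called higher and 1.11% lower in KO, and 0.235% higher and 0.0928% lower in I53A. Gm9, an uncharacterised gene at 37208502 to 37211041, ends 2762 bases before Rhox1 begins. Its log2 signal was 3.16, 3.09 and 2.71 in WT, 8.59, 8.73 and 9.22 in KO, and 3.36, 2.84 and 3.61 in I53A. It was at background in WT and I53A and at least 33.1-fold higher in KO than in I53A (limma adjusted p = 2.3e-05). With normexp this fitted log2 difference fell from 5.58 to 2.59, below that bound, and stayed called. Lonrf3, called higher in KO (limma adjusted p = 0.0347), was not well above background on any array, so no fold is given, and its call ended with any 1 WT or KO array left out. Btg1b and Btg1c, which lie in the interval of 165 kb between Rhox9 and Rhox10, were not called in KO. Btg1b had a log2 fold change of -0.85 (limma adjusted p = 0.361). Btg1c was well above background on 1 of 9 arrays, in WT, and is given no fold (limma adjusted p = 0.162).

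**Figure D3:**
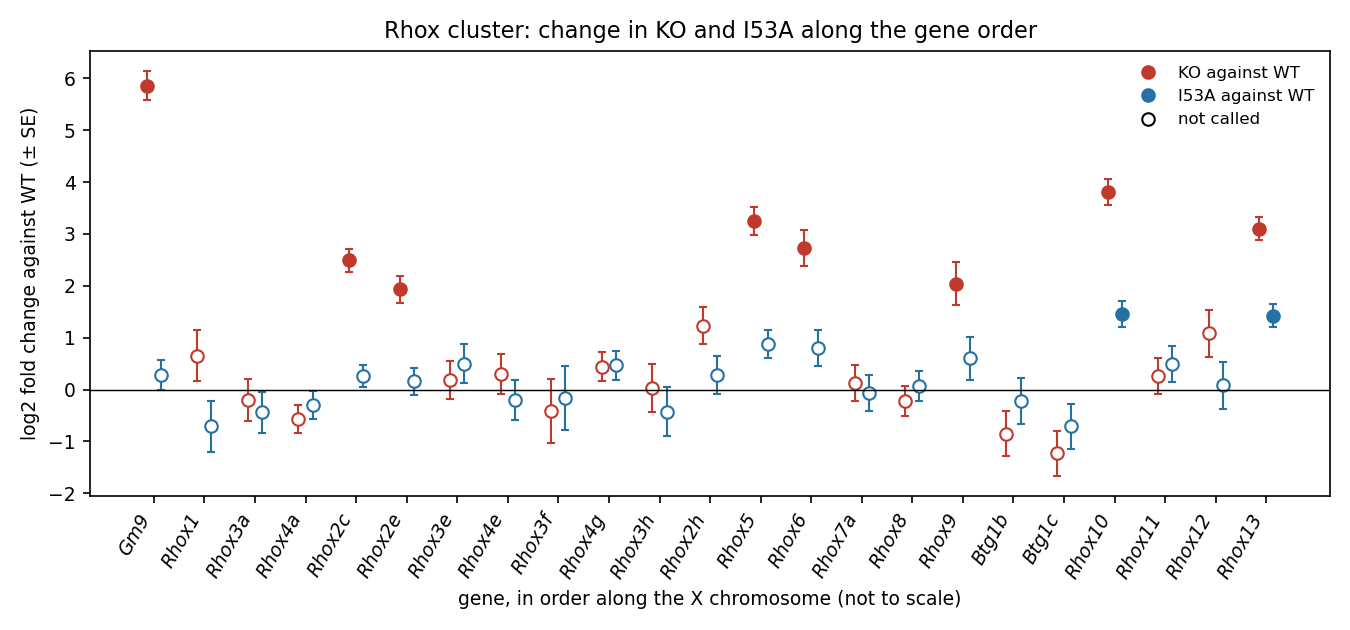
Log2 fold change against WT (± SE, limma) of the 20 Rhox genes with a probe, Gm9, Btg1b and Btg1c, in order along the X chromosome and not to scale, for KO and I53A. Filled points were called. The KO values of Rhox5, Rhox6, Rhox9, Rhox10, Rhox13, Rhox2c and Rhox2e lie between 1.93 and 3.80, and the I53A values of these genes between 0.16 and 1.46.

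Lists of genes related to the cluster were described in the same fit, with their counts beside the background given above. A list's median is over fitted values, which are no bounds for genes at background in a group. Among 21 measured of 23 genes known to regulate Rhox genes or to belong to the complexes that silence them (DNA methyltransferases, Uhrf1, H3K9 methyltransferases and their partners, subunits of the germline-repressing PRC1, and H1 histones), 1 rose in KO and none was called in I53A by limma. This was the linker histone gene H1f1 (1.18, limma adjusted p = 0.013). The median log2 fold change of the list was 0.09 in KO and 0.06 in I53A. Without being called, Dnmt1 had every KO array (-0.57) and every I53A array (-0.45) below every WT array. Dnmt3l in KO (0.61), and Dnmt3b (0.75) and H1f1 (0.61) in I53A, had every array above WT, and Pcgf6 in I53A (-0.21) every array below. In KO 11.6% of the table's probes lay wholly above WT and 12.6% below, and in I53A 8.09% above. Dnmt3a and H1f0 were not well above background on any array.

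Germline genes were described for the autosomes, with a list of genes that DNA methylation silences in somatic cells, and for the X chromosome. The X-linked list was of germline genes without that condition. Of 20 autosomal genes, 11 rose and 1 fell in KO, and 5 rose and 0 fell in I53A (limma), with median log2 fold changes of 1.80 and 0.72. The largest rises in KO were those of Tuba3a, a testis alpha-tubulin gene (4.59, limma adjusted p = 0.000163), Tuba3b (at least 15.4-fold, limma adjusted p = 0.000272), the synaptonemal complex gene Syce1 (4.11, limma adjusted p = 0.000167) and Fkbp6, a meiotic co-chaperone gene (4.10, limma adjusted p = 2.1e-05). Tuba3a, Syce1 and Fkbp6 also rose in I53A, by 2.69, 2.93 and 3.22 (limma adjusted p = 0.0227, 0.00884 and 0.000827), as did the piRNA pathway gene Mael (2.72, limma adjusted p = 0.00166) and Tex19.1 (1.31, limma adjusted p = 0.0227). The 1 gene that fell in KO was Sycp3, of the synaptonemal complex (-1.57, limma adjusted p = 0.00365). Of 15 measured among 22 X-linked germline genes, 3 rose and 0 fell in KO and none was called in I53A (limma), with medians of 0.43 and 0.31. Usp26, a testis deubiquitinase gene, was at least 4.93-fold higher in KO (limma adjusted p = 0.0018) and Tex11, a meiotic recombination gene, at least 3.15-fold (limma adjusted p = 0.0242). Fthl17a was called but was not well above background on any array.

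Cell types that express Rhox genes were read from markers, and their part in the Rhox results was not tested. In bulk samples, fewer cells of a type and less RNA per cell cannot be told apart. Of 12 measured trophoblast markers 3 were called higher in KO, Ascl2 (1.97, limma adjusted p = 0.0142), Plac1 (a fitted 2.87-fold, limma adjusted p = 0.0166) and Eomes (1.14, limma adjusted p = 0.0458), and 0 lower. The list's median log2 fold change in KO was 0.03. In Tfap2c (-0.88), Hand1 (-0.76), Krt8 (-0.66) and Krt18 (-0.76), none of them called, every KO array lay below every WT array. The same held for 12.6% of the table's probes. Tfap2c, also a germ cell marker, was lower in I53A too (-1.13, not called), with every array below WT. The summed intensity of all 12 was 7190 to 7270 in KO, 10500 to 11600 in WT and 11900 to 14800 in I53A, of which the keratins Krt18 and Krt8 made up 83.4% to 92.8% on an array. Without these 2 genes the sum was 977 to 1190 in KO, 857 to 908 in WT and 1070 to 1140 in I53A. Elf5 and Tpbpa were not well above background on any array. Of 10 primitive and visceral endoderm markers 4 rose in KO, Gata6 (2.09, limma adjusted p = 0.00651), Gata4 (at least 1.70-fold, limma adjusted p = 0.00651), Sox17 (at least 2.03-fold, limma adjusted p = 0.00899) and Amn (at least 2.55-fold, limma adjusted p = 0.0266). In KO Gata4 was well above background on 2 of 3 arrays, and Sox17 and Amn on 1. The list's sum was 338 to 408 in KO, 182 to 222 in WT and 197 to 250 in I53A, while Sox7, Foxa2, Afp and Dab2 were not well above background on any array. Of 8 germ cell markers 4 rose in KO, namely Dazl (at least 4.24-fold, limma adjusted p = 0.00123) and Ddx4 (a fitted 6.41-fold, limma adjusted p = 0.00285), which the autosomal list also holds, Kit (1.44, limma adjusted p = 0.0103) and Dppa3 (1.31, limma adjusted p = 0.0286). The sum over all 8 germ cell markers, with Nanos3 the brightest, was 945 to 974 in KO, 644 to 787 in WT and 490 to 746 in I53A. None of the trophoblast, endoderm and germ cell markers was called in I53A (limma).

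Of 8 Sertoli cell markers 3 rose in KO, Wt1 (at least 3.40-fold, limma adjusted p = 0.0154), Gata1 (1.78, limma adjusted p = 0.0025) and Clu (1.31, limma adjusted p = 0.0331), and 1, Dhh, rose in I53A (2.84, limma adjusted p = 0.0438). Aard was at least 6.19-fold higher in KO than in I53A (limma adjusted p = 0.00772). Amh and Sox9 were not well above background on any array. The summed intensity of the Sertoli list was 2760 to 4830 in KO, 1380 to 1840 in WT and 3040 to 4370 in I53A, of which Clu made up 80.9% to 92.7%. None of the 5 epididymis markers was called in KO or I53A (limma), with sums of 131 to 150 in KO, 108 to 151 in WT and 109 to 172 in I53A, and Lcn8 and Adam7 were not well above background on any array. The embryonic stem cell list, summed over the 5 genes with a value on every array, reached 20700 to 22100 in KO, 23600 to 27900 in WT and 23200 to 25900 in I53A. Pou5f1 and Dppa5a made up 77.4% to 93.5% of this sum on an array. Without them the sum, over Sox2, Esrrb and Klf4, was 2170 to 3570 in KO, 3900 to 6300 in WT and 1500 to 2840 in I53A. It lay below WT in both mutants, but Esrrb was by far its brightest gene (mean log2 signal 11.96 in WT) and was not called. In KO the fold changes were -1.03 in Sox2, -0.92 in Esrrb, -0.21 in Pou5f1 and -0.06 in Dppa5a. Klf4 (0.67), Nanog (1.06) and Tdgf1 (0.95), none of them called, had every KO array above every WT array. Nanog (on WT 3 and I53A 3) and Tdgf1 (on I53A 3) had a spot dropped as an outlier and were left out of the sum.

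**Figure D4:**
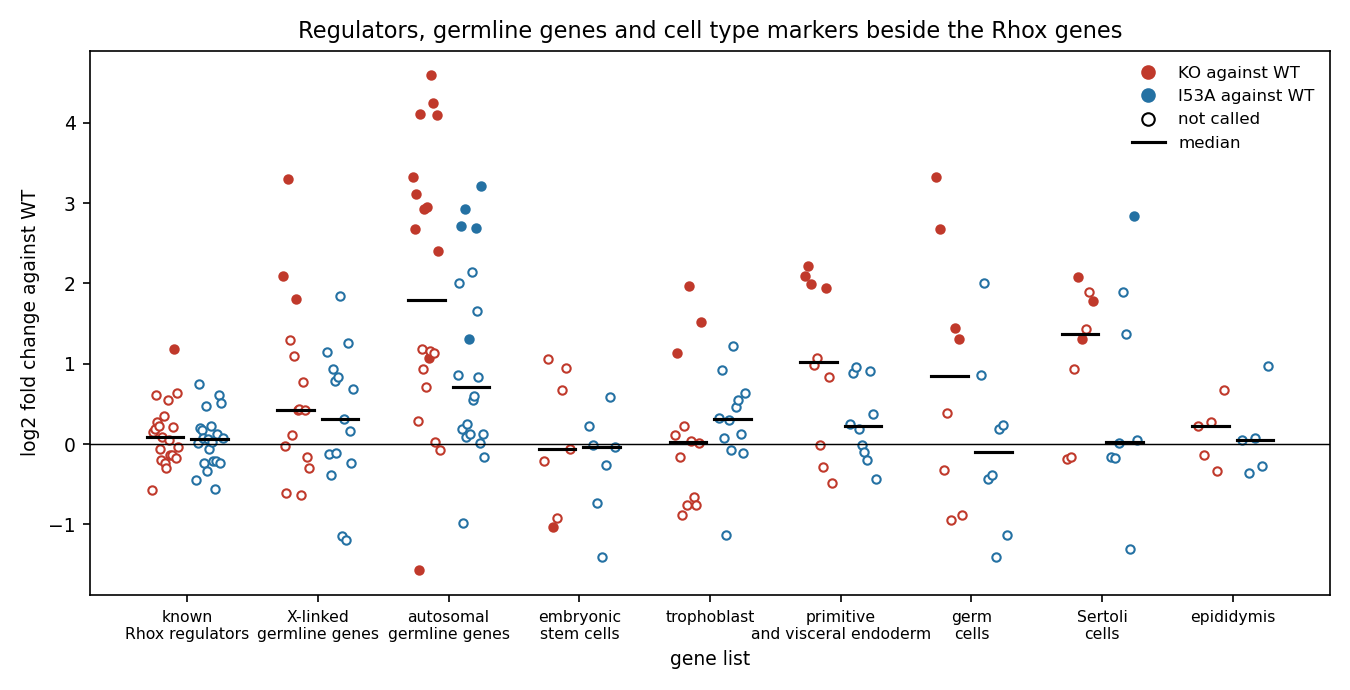
Log2 fold change against WT of every measured gene of 9 lists in KO and I53A (points, filled where called) with the list's median (bar). The autosomal germline list has medians of 1.80 in KO and 0.72 in I53A, and the list of known Rhox regulators 0.09 and 0.06.

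Genes whose levels followed the Rhox genes most closely over the 9 arrays were sought by Pearson's r with the mean centred log2 profile of the 4 listed genes that were well above background on all arrays of a group (Rhox5, Rhox6, Rhox9 and Rhox10). This profile ran from -1.7 to -1.0 in WT, from -0.39 to -0.32 in I53A and from 1.40 to 1.90 in KO. Of 11357 genes compared, the 5 highest were Myl4 (0.993), Tex12 (0.989), Col4a1 (0.988), Pramel31 (0.987) and Kif3a (0.986). They encode a myosin light chain, a synaptonemal complex protein, a basement membrane collagen chain, a PRAME family protein and a kinesin motor subunit. None is on the X chromosome. The r values are a measure of likeness over arrays that fall into 3 groups and share the same hybridisations, and carry no test. Myl4 had a log2 signal of 7.31, 7.69 and 7.10 in WT, 9.29, 9.49 and 9.46 in KO, and 8.07, 8.29 and 7.97 in I53A, with I53A between the other groups and no overlap. In Tex12 the KO level was at least 6.88-fold that of WT.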

How the data were processed

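RNA from 9 mESC samples was labelled with Cy3 and hybridised by the authors to Agilent SurePrint G3 mouse arrays, 1 per sample, and read with Feature Extraction 11.5.1.1. The deposited scan files hold processed intensity per spot on a linear scale, background-subtracted by that software. The deposited series table holds log2 values that the authors had averaged over repeated probes and quantile normalised, for 30170 probes mapped to mm10 genes. It also holds the authors' log2 fold changes and p-values, which were not used.

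Control and outlier-flagged spots were dropped, intensities were log2 transformed, repeated probes averaged and arrays quantile normalised over 55681 probes (R 4.3.3, limma 3.58.1). limma fitted 3 group means with 6 residual degrees of freedom to the table's probes. Probes outside the table were read from a second fit over all 55681, with its own adjustment. A probe was called at a Benjamini-Hochberg adjusted p under 0.05 and more than 2-fold change. A gene was represented by its brightest table probe, or else by its brightest probe outside the table. Positions are RefSeq's in GRCm38.p6, and sequences are the table's (probes) and RefSeq's of the same build (promoters).

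The listed Rhox genes and the gene lists were chosen with earlier results of these data known. Named were all listed genes, other Rhox and flanking genes called in a comparison, up to 4 called genes per list by size of log2 fold change, and the 5 genes most like the Rhox profile. Rhox8, Rhox4a, Rhox2h, Btg1b, Btg1c, Sycp3, Mael, Tex19.1 and Clu were added after their values were seen. Alternatives were the authors' values, percentile scaling, normexp, dim probes left out, all probes tested, slide, replicate number, only the groups compared, mean over probes, and each array left out. The scripts were checked on simulated data. Normexp used the median spot signal, since the scan files give no mean.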

Additional observations from a re-analysis of the deposited data

How the results depend on the processing

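In KO against WT, 4 listed genes were called, and 3 to 4 when 1 array was left out. In I53A against WT the 1 call became 0 with percentile scaling, normexp, all probes tested, slide as a block, slide 1 only, the replicate block or only the groups compared, and 0 to 0 without any 1 array. In KO against I53A, 3 were called, 1 with normexp and 2 to 3 when 1 array was left out. Of the other Rhox genes, 3 were called in KO against WT (1 in the authors' values, which hold only 5 of the 14, and 3 to 4 when 1 array was left out). In I53A against WT 1 was called, and 0 with percentile scaling, normexp, slide 1 only, the replicate block or only the groups compared, and 0 to 1 when 1 array was left out. In KO against I53A 3 were called, 1 in the authors' values, 1 on slide 1 only and 2 with normexp, and 3 to 3 without any 1 array. Of the flanking genes 2 were called in KO, 1 with percentile scaling, normexp, slide 1 only or dim probes left out (where Lonrf3 was not tested), and 1 to 2 when 1 array was left out. Without WT 1, WT 2, WT 3, KO 1, KO 2, KO 3 or I53A 2 the Lonrf3 call ended (limma adjusted p from 0.055 to 0.115). In I53A 0 flanking genes were called in every alternative. No Rhox or flanking gene changed sign in a comparison in which it was called. Where not stated, the cause was not tested.

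Samples of the groups share numbers 1 to 3 in their titles, but same-numbered arrays did not deviate together (correlations from -0.27 to 0.22). With the replicate block 4 listed genes were called in KO and 0 in I53A, each against WT, and 2 between the mutants. The groups were split alike over the slides, so slide as a block cannot move a difference between groups and says nothing of its stability. At 3 arrays per group, and with about as many probes at background as above it, small changes of dim genes such as Rhox1 and Rhox11 were not detectable.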

Other observations

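Beyond the comparisons, 2 probes of the series table lack a gene symbol but have a gene start, as the table gives it, in or close to Rhox3g and Rhox11-ps3 of RefSeq. Both were not well above background on any array, with log2 signals of 4.08 to 5.10 and 2.66 to 3.62. The table probe named Rhox7a through its accession is placed by the table at 37897232 on chromosome X, which is an edge of Rhox7b in RefSeq, so which of these copies it reads cannot be told apart.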
